A study of Mus musculus with 6 samples.

Results

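The 9 genes described here couple glucose to insulin release, and their mRNAs were measured in RNA that came down with an antibody against hnRNPK and in total RNA of the same cell line. The 9 members were chosen by symbol, and the identifiers of the deposited count tables were matched to mouse symbols. They are Slc2a2, G6pc2, Kcnj11, Abcc8, Cacna1c, Cacna1d, Ffar1, Glp1r and Slc30a8, 9 of the 53379 genes in the tables. All 9 passed the filter on low counts that left 16929 genes for testing. The hnRNPK IP group held 3 libraries of immunoprecipitated RNA, and the total RNA group held 3 libraries from a 10% input of the lysate. Every library came from Min6, an insulin-secreting line derived from a mouse insulinoma, at passage 31. All had been given 25 mM glucose with 500 µM palmitic acid for 30 h, which the labels name glucolipotoxicity, so no library shows these mRNAs in untreated cells. The comparison asks which of these mRNAs made up a larger or smaller share of the RNA recovered with hnRNPK, an RNA-binding protein whose KH domains prefer C-rich single strands. No control antibody library enters this comparison, and RNA held by beads or antibody alone cannot be told apart from RNA held by hnRNPK.

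In the pancreatic beta cell, glucose enters through a facilitative transporter and is trapped by phosphorylation, and its metabolism raises the ratio of ATP to ADP. ATP closes potassium channels of the plasma membrane, the cell depolarizes, voltage-gated calcium channels open, and calcium triggers fusion of the insulin granules. Fatty acids and incretin hormones amplify the response through G protein-coupled receptors, and zinc carried into the granules is stored with insulin.

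Total counts lay between 38764925 and 46222181 in IP libraries and between 46185284 and 52735957 in total RNA libraries. The IP libraries varied more, with a median coefficient of variation of 22.1% over the genes tested, against 10.4% for total RNA. Total RNA library 1 stood apart from the other two, with a chi-square over its degrees of freedom of 53.4 and 48.8 against them and 6.40 between them, while the IP pairs had 40.2 to 123. Without it Ffar1 was at 2.14, Glp1r at 1.61 and Kcnj11 lost its call at 0.36, and the other members kept theirs. All 12 beta cell markers passed the filter, and their summed level was 12149 to 14512 CPM in IP libraries and 27557 to 38917 CPM in total RNA libraries, where CPM is the count scaled to library size with TMM factors by the cpm function of edgeR. Of these markers 8 were called higher and 4 lower in the IP. Markers of other islet cells summed to 1648 to 1736 CPM in IP libraries and 2417 to 3489 CPM in total RNA libraries (1 higher and 4 lower of 8 tested, out of 10 listed), with Hhex at 0 reads in every library. Exocrine and duct markers summed to 92.0 to 145 CPM in IP libraries and 321 to 395 CPM in total RNA libraries (2 lower and 1 not called of 3 tested, out of 12 listed), and Cpa1, Prss2, Pnlip, Ptf1a and Cftr were at 0 reads throughout. Stromal, endothelial and immune markers summed to 7.37 to 10.5 CPM in IP libraries and 3.44 to 4.86 CPM in total RNA libraries (3 higher of 6 tested, out of 12 listed). Both groups came from Min6 cells under the same treatment. These sums therefore set shares of the recovered RNA beside shares of total RNA, and do not measure numbers of cells. The part of these markers in the results below was not tested.

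Of the 9 mRNAs, 7 were more abundant in the IP and 2 were less abundant. In CPM, which uses TMM factors, the groups did not overlap for any of the 9. The fatty acid receptor Ffar1, the calcium channel subunit Cacna1c and the incretin receptor Glp1r were 3.99-fold, 2.96-fold and 2.61-fold higher in the IP. G6pc2, a glucose-6-phosphatase catalytic subunit of the islet, was 1.93-fold lower and Abcc8, the sulfonylurea receptor, 1.82-fold lower. Cacna1d, Slc2a2, Kcnj11 and Slc30a8 were 1.75-fold, 1.42-fold, 1.31-fold and 1.23-fold higher. The counts of 7 enriched and 2 depleted stand beside 28.9% and 33.6% of all genes tested, 62.4% in either direction (edgeR quasi-likelihood test, p under 0.05 after Benjamini-Hochberg adjustment), and every IP library was above every total RNA library in 32.2% of all genes and below in 39.3%, together 71.4%. With no TMM factors, 4 members were called enriched, and G6pc2 and Abcc8 were still depleted. Slc2a2 was then at 0.068, and Kcnj11 (−0.039) and Slc30a8 (−0.14) changed sign. The separation of Kcnj11 and Slc30a8 above total RNA thus depends on TMM factors, and overlap without them was not examined for the other members. Leaving out TMM factors moved the median log2 fold change of all genes by −0.43. The share of enriched among all calls was 46.3% with TMM and 32.1% without.

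**Figure D1:**
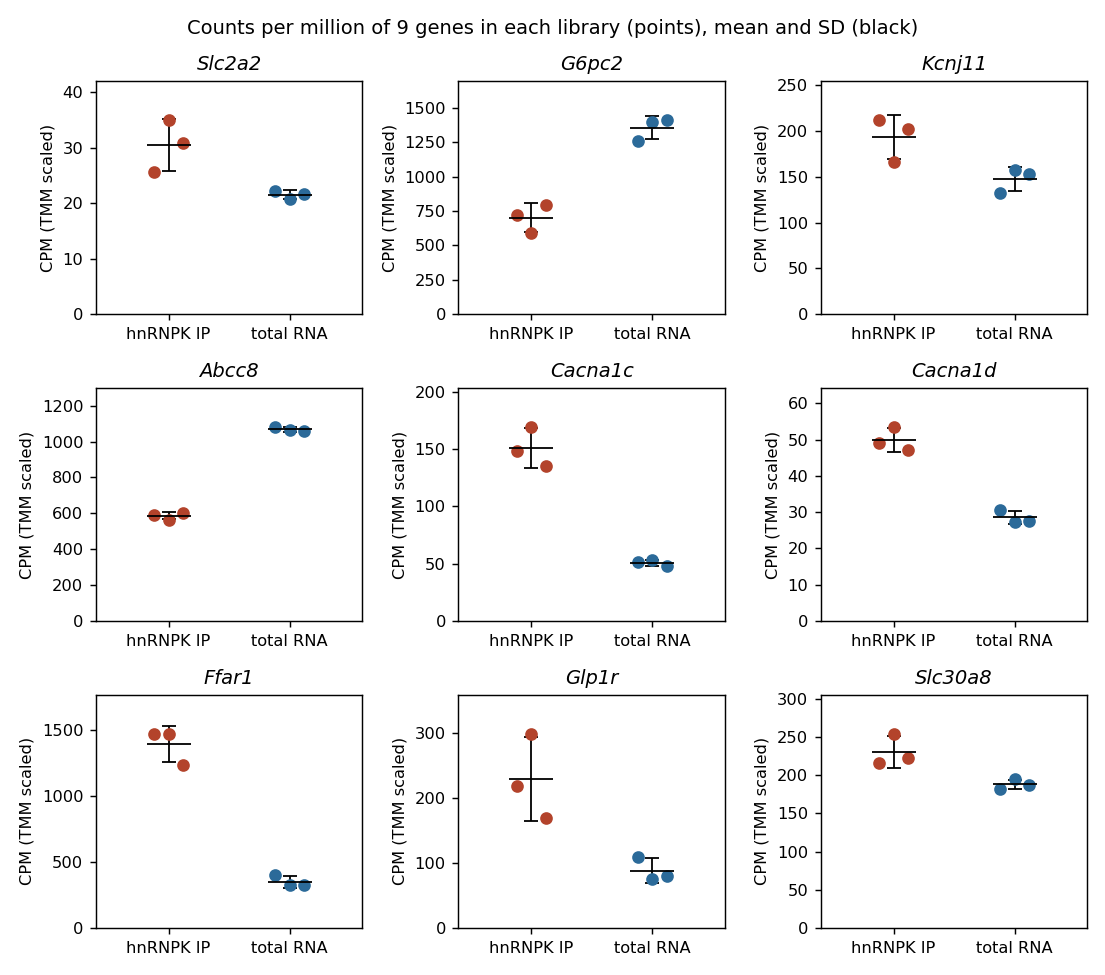
CPM (linear axis from 0) of the 9 mRNAs in each of 3 hnRNPK IP libraries (left) and 3 total RNA libraries (right), with the group mean and SD in black. For Ffar1 the IP libraries sit at 1236 to 1471 CPM, above all total RNA libraries, while for G6pc2 and Abcc8 every IP library sits below every total RNA library.

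Per length of annotated exons, the members spanned a wide range of levels. In RPKM, which is CPM per kilobase of exon, G6pc2 was highest in the IP at 356 ± 51.9 and in total RNA at 687 ± 43.1 (SD, n = 3 each). In the IP it was followed by Ffar1 (333 ± 32.1), Slc30a8 (117 ± 10.6), Abcc8 (72.4 ± 2.41), Kcnj11 (52.6 ± 6.50), Glp1r (39.5 ± 11.3), Cacna1c (7.11 ± 0.819), Slc2a2 (5.31 ± 0.816) and Cacna1d (3.96 ± 0.258). The single libraries of G6pc2 and Ffar1 overlapped in the IP, as did those of Kcnj11 and Glp1r, and the other neighbours in this order were separate. In total RNA the order was G6pc2, Abcc8 (132 ± 1.66), Slc30a8 (95.3 ± 3.20), Ffar1 (83.5 ± 10.3), Kcnj11 (40.1 ± 3.68), Glp1r (15.1 ± 3.27), Slc2a2 (3.74 ± 0.138), Cacna1c (2.40 ± 0.123) and Cacna1d (2.26 ± 0.141). There the libraries of Slc30a8 and Ffar1 overlapped, and so did those of Cacna1c and Cacna1d. Ffar1 was thus next to G6pc2 in the IP, a place held by Abcc8 in total RNA.

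Since hnRNPK prefers C-rich RNA, the 30-base stretch of the 3′ UTR with the most C is shown for some members. These are the 3 mRNAs highest in the IP, the pair that forms the ATP-sensitive channel, G6pc2, and Slc30a8, which had the fewest C of all members. Sequences are from GENCODE M21 transcripts (GRCm38), written 5′ to 3′ on the transcript strand as DNA letters. Capitals mark runs of at least 3 C.
Ffar1: ctCCCCtCCCgctctctcctctcactgtcc
Cacna1c: tccaCCCCCaccgccaCCCCCaCCCCCCac
Glp1r: caaCCCCCCCtctgcctttgaaatcctCCC
Kcnj11: ccttccacctcaggtCCCCCCaCCCCCacc
Abcc8: ccagcgccagcgtgccgCCCCgcacctcac
G6pc2: caccatgatgaccaaaggtcctgctccacc
Slc30a8: ctcggtcacactgtcagcttcctgtgtttc
They lie at chr7:30858310-30858339 (minus strand), chr6:118593106-118593135 (minus), chr17:30937426-30937455 (plus), chr7:46097468-46097497 (minus), chr7:46104589-46104618 (minus), chr2:69227173-69227202 (plus) and chr15:52335265-52335294 (plus), in the order shown. The Cacna1c stretch holds 23 C, a number reached by the richest stretch of 1.79% of the 12983 genes tested with a 3′ UTR of at least 100 bases. Kcnj11 reaches 20 (9.37% of genes), Ffar1 18 (22.3%), Glp1r, Cacna1d and Slc2a2 16 each (45.1%), G6pc2 12 (86.8%) and Slc30a8 10 (95.9%). Abcc8 has 17, from the 101-base 3′ UTR of a transcript other than the one with its longest coding sequence, and is not ranked. The 3′ UTRs of Cacna1c and Cacna1d also come from a transcript other than the one with the longest coding sequence. A longer 3′ UTR offers more stretches to choose from, and those ranked run from 534 bases in Slc30a8 to 6652 in Cacna1c. A match of letters is a description and not a binding site.

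The mRNA of the glucose transporter Slc2a2 was higher in the IP, and that of the glucose-6-phosphatase subunit G6pc2 was lower. Slc2a2 encodes GLUT2, the low-affinity glucose transporter of rodent beta cells (ENSMUSG00000027690.13, chromosome 3, 28697903 to 28731359, plus strand, 11 exons in the transcript with the longest coding sequence, which gives all exon numbers here). IP libraries 1, 2 and 3 had 25.7, 35.03 and 30.9 CPM of it, against 22.3, 20.7 and 21.6 CPM in total RNA libraries 1, 2 and 3. The lowest IP library stood 1.15-fold above the highest total RNA library, on 869 to 1240 reads per IP library and 1117 to 1389 per total RNA library. The log2 fold change of Slc2a2 was 0.50 ± 0.14 (SE), with an adjusted p of 0.0151 from edgeR. The call ended with no TMM factors (0.068), with an offset for gene length (0.13) and without total RNA library 2 (0.51), with adjusted p = 0.703, 0.438 and 0.0530 (edgeR).

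G6pc2 encodes the islet-specific catalytic subunit that hydrolyses glucose 6-phosphate in the endoplasmic reticulum (ENSMUSG00000005232.11, chromosome 2, 69211073 to 69227841, plus strand, 5 exons). It had 19484 to 31767 reads per IP library and 74919 to 78306 per total RNA library, the most of any member in total RNA. IP libraries 1, 2 and 3 had 724, 591 and 792 CPM, against 1258, 1398 and 1411 CPM in total RNA libraries 1, 2 and 3. Every IP library was below every total RNA library. The log2 fold change of G6pc2 was −0.95 ± 0.12 (edgeR, adjusted p = 0.000199) and was −0.46 with the offset for gene length, still called.

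The 2 subunits of the ATP-sensitive potassium channel went opposite ways. Kcnj11 encodes Kir6.2, the pore, and Abcc8 encodes SUR1, the regulatory subunit that binds sulfonylureas, and both are needed for a working channel. Their genes are neighbours on the minus strand of chromosome 7, with 3758 bases between them. Kcnj11 (ENSMUSG00000096146.2, 46093953 to 46100764) had 212, 166 and 202 CPM in IP libraries 1, 2 and 3, against 132, 157 and 153 CPM in total RNA libraries 1, 2 and 3. IP library 2 was 1.06-fold above total RNA library 2, the smallest gap between the groups among the 9 members. Its log2 fold change was 0.39 ± 0.12 (edgeR, adjusted p = 0.0208). The Kcnj11 call ended without IP library 1 (0.30), IP library 3 (0.30) or total RNA library 1 (0.36), and the value was −0.039 with no TMM factors (edgeR adjusted p = 0.148, 0.114, 0.0513 and 0.799, out of 0.00215 to 0.799 over 15 alternatives).

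Abcc8 (ENSMUSG00000040136.10, 46104523 to 46180033, 39 exons) was the steadiest member. IP libraries 1, 2 and 3 had 591, 565 and 603 CPM, against 1082, 1066 and 1056 CPM in total RNA libraries 1, 2 and 3. The coefficient of variation was 3.33% in the IP and 1.26% in total RNA. All IP libraries were below all total RNA libraries, and the log2 fold change was −0.87 ± 0.07 (edgeR, adjusted p = 1.96e-05). With the offset for gene length it was −1.47. Its annotated exons share no base with those of Gm45486 or Gm45487, the genes annotated within or across the Abcc8 locus.

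The ratio of the 2 subunits within a library does not depend on scaling between libraries. There were 0.358, 0.295 and 0.336 reads of Kcnj11 for each read of Abcc8 in IP libraries 1, 2 and 3, against 0.122, 0.147 and 0.145 in total RNA libraries 1, 2 and 3. The IP ratio was 2.39-fold that of total RNA, and the log2 ratio differed by 1.26, or 1.17 to 1.33 when any 1 library was left out. Since every IP library was above total RNA for Kcnj11 and below it for Abcc8, the groups could not overlap in this ratio, and no test is given for it. Ratios were taken for 7 pairs, chosen with the values of their genes known, and 1 of the pairs is not reported here.

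**Figure D2:**
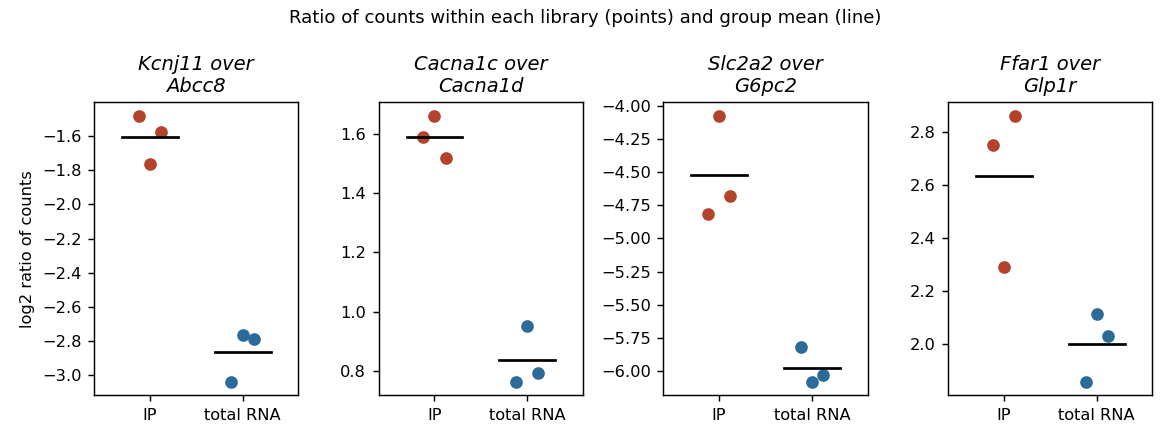
Log2 ratio of the counts of 2 members within each hnRNPK IP library (left) and each total RNA library (right), with the group mean as a line, on an axis that does not start at 0. The IP lies above total RNA by 1.26 for Kcnj11 over Abcc8, 0.75 for Cacna1c over Cacna1d, 1.45 for Slc2a2 over G6pc2 and 0.63 for Ffar1 over Glp1r, with no overlap. For Kcnj11 over Abcc8 and Slc2a2 over G6pc2 overlap was not possible, since the 2 genes of each pair went opposite ways in every library.

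The mRNAs of both L-type calcium channel pore-forming subunits among the members were higher in the IP. Cacna1c encodes Cav1.2, through which much of the calcium for first-phase secretion enters the mouse beta cell (ENSMUSG00000051331.15, chromosome 6, 118587240 to 119196418, minus strand). IP libraries 1, 2 and 3 had 148, 169 and 135 CPM, against 51.9, 52.9 and 48.0 CPM in total RNA libraries 1, 2 and 3. The lowest IP library was 2.55-fold above the highest total RNA library. The log2 fold change of Cacna1c was 1.56 ± 0.11 (edgeR, adjusted p = 1.04e-05). Its 21191 bases of annotated exons are the most among the members, and the offset for gene length took the value to 0.40 (edgeR adjusted p = 0.00810).

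Cacna1d encodes Cav1.3, which opens at more negative voltage (ENSMUSG00000015968.17, chromosome 14, 30039939 to 30491455, minus strand). It had 49.2, 53.5 and 47.2 CPM in IP libraries 1, 2 and 3, against 30.6, 27.4 and 27.7 CPM in total RNA libraries 1, 2 and 3. The groups were separate, and the log2 fold change was 0.81 ± 0.11 (edgeR, adjusted p = 0.000264). With the offset for gene length it was −0.092 and no longer called (edgeR adjusted p = 0.445). That was the highest adjusted p over 15 alternatives, and the lowest was 2.46e-12, from the DESeq2 test, whose values are not on a par with those of edgeR. Cacna1d shares 589 bases of exon with Chdh on the other strand, so reads there cannot be assigned to 1 gene without a known strand setting. Within libraries there were 3.01, 3.16 and 2.86 reads of Cacna1c for each read of Cacna1d in IP libraries 1, 2 and 3, and 1.70, 1.93 and 1.73 in total RNA libraries 1, 2 and 3. That is a 1.68-fold higher ratio in the IP, with no overlap (exact permutation test, two-sided, p = 0.1, the smallest that 3 against 3 libraries allow, and 0.117 after adjustment over the 7 pairs).

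The receptors that amplify secretion were among the members highest in the IP. Ffar1 encodes the receptor for long-chain fatty acids also known as GPR40, for which palmitic acid is a ligand (ENSMUSG00000044453.5, chromosome 7, 30857390 to 30861564, minus strand, 1 exon). IP libraries 1, 2 and 3 had 1471, 1466 and 1236 CPM, against 398, 323 and 324 CPM in total RNA libraries 1, 2 and 3. The lowest IP library stood 3.11-fold above the highest total RNA library, the widest gap among the 9 members. The log2 fold change of Ffar1 was 2.00 ± 0.12 (edgeR, adjusted p = 4.94e-06), at percentile 93.2 of all genes tested. Over 15 alternatives it was 1.56 to 2.14, called each time.

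Glp1r encodes the receptor for glucagon-like peptide 1, which raises cyclic AMP (ENSMUSG00000024027.7, chromosome 17, 30901817 to 30940791, plus strand, 13 exons). It had 219, 299.5 and 170 CPM in IP libraries 1, 2 and 3, against 110, 74.8 and 79.4 CPM in total RNA libraries 1, 2 and 3. Glp1r was the most variable member in both groups, with a coefficient of variation of 28.5% in the IP and 21.6% in total RNA, yet no library of one group reached the other. Its log2 fold change was 1.38 ± 0.23 (edgeR, adjusted p = 0.000989), and it stayed called at 0.94 to 1.61 over 15 alternatives. The reads of Ffar1 for each read of Glp1r were 6.73, 4.90 and 7.27 in IP libraries 1, 2 and 3, and 3.63, 4.32 and 4.08 in total RNA libraries 1, 2 and 3, again without overlap (exact permutation test, two-sided, p = 0.1, the smallest possible, and 0.117 adjusted).

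Slc30a8 encodes ZnT8, which loads zinc into insulin granules (ENSMUSG00000022315.3, chromosome 15, 52295553 to 52335798, plus strand, 8 exons). IP libraries 1, 2 and 3 had 215, 254 and 222 CPM, against 182, 194 and 187 CPM in total RNA libraries 1, 2 and 3. The groups were separate by 1.11-fold between the lowest IP and the highest total RNA library. Its log2 fold change of 0.30 ± 0.09 was the smallest in size among the members (edgeR, adjusted p = 0.0230). The Slc30a8 call ended without IP library 3 (0.26) or total RNA library 3 (0.33), with no filter on low counts (0.26) and with no TMM factors (−0.14), with edgeR adjusted p = 0.0522, 0.0599, 0.0598 and 0.217. With the offset for gene length it was 0.80.

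**Figure D3:**
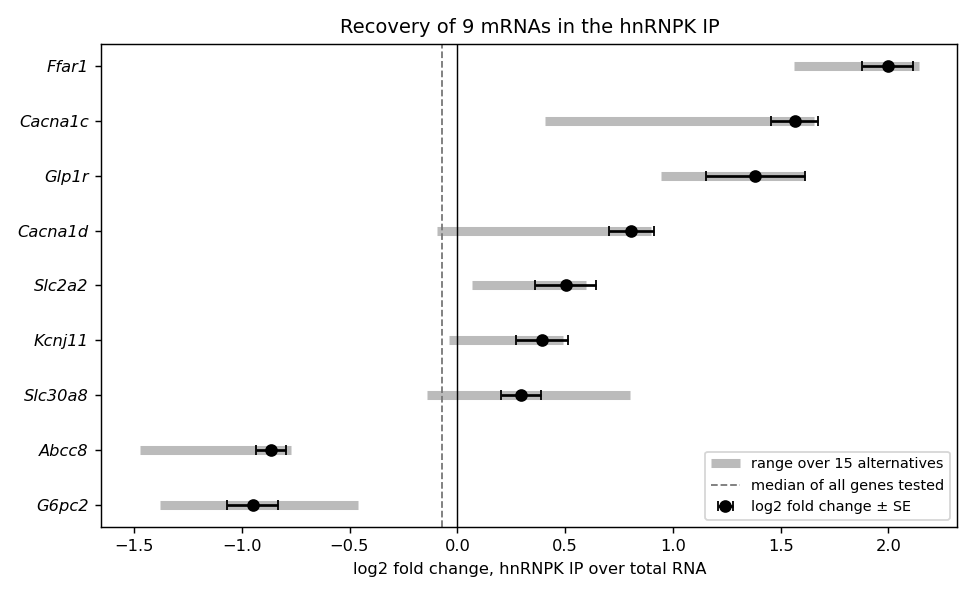
Log2 fold change of the 9 mRNAs in the hnRNPK IP over total RNA (points, ± SE) and its range over 15 alternatives of the processing (grey bars), with the median of all genes tested as a dashed line. Ffar1, at 2.00, keeps a range of 1.56 to 2.14, while the ranges of Cacna1d, Kcnj11 and Slc30a8 cross 0.

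Genes with more annotated exon bases were more often enriched over all genes, so the members were set beside genes of like exon length. Exon length here joins all annotated exons of a gene and can exceed the length of any 1 transcript. The transcripts with the longest coding sequence have 4877 bases for Abcc8, 6669 for Cacna1c and 6564 for Cacna1d. Classes by transcript length were not tested. The genes were divided by exon length into 5 classes of equal size. Among those of 6934 bases or more the median log2 fold change was 0.48, with 48.9% of genes enriched and 21% depleted. Abcc8, with 8090 bases, belongs to that class and was depleted, while Cacna1c and Cacna1d belong to it and were enriched. In the class of 1706 to 3039 bases the median was −0.50, with 17.9% enriched and 39.4% depleted. G6pc2 (1974 bases) and Slc30a8 (1971 bases) are nearly equal in length within that class, and G6pc2 was depleted and Slc30a8 enriched. Ffar1 (4175 bases) and Kcnj11 (3677 bases) lie in the middle class with a median of −0.17, and Glp1r and Slc2a2 in the next longer one, with a median of 0.14.

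**Figure D4:**
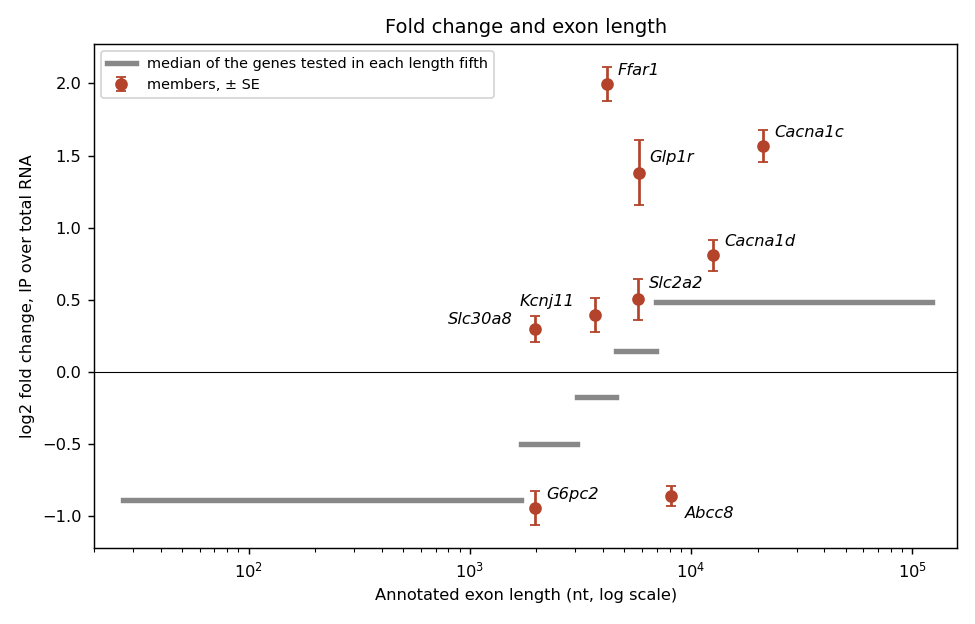
Log2 fold change (hnRNPK IP over total RNA) of the 9 members, ± SE, against annotated exon length on a log scale, with the median of all genes tested in each of 5 length classes as grey bars. Abcc8 and G6pc2 lie below the median of their length class and the other 7 members above theirs.

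C-rich tetramers (CCCC or TCCC, overlaps counted, transcript strand only) gave a second description. Over all genes with a 3′ UTR of at least 100 bases the median density was 7.90 per kilobase, and the median log2 fold change was 0.53 in the 20% of genes with the highest density and −0.83 in the 20% with the lowest. Kcnj11 had 23.9 per kilobase of 3′ UTR, at percentile 92.3, Cacna1c 14.1, Ffar1 12.9 and Glp1r 12.8, at percentiles 76.5, 72.6 and 72.5. Cacna1d had 7.04, Slc2a2 3.09, G6pc2 2.62 and Slc30a8 1.87, at percentiles 44.6, 16.9, 14.3 and 10.6. Abcc8 had 1 such tetramer in 101 annotated bases, too few to rank. Slc2a2 and Slc30a8 had a density close to that of G6pc2, and were higher in the IP while G6pc2 was lower. With no TMM factors neither Slc2a2 (0.068) nor Slc30a8 (−0.14) was called. The part of C-rich density in the recovery of the members was not tested. In the coding sequence Ffar1 had 18.8 per kilobase, at percentile 93.4, against a median of 8.22 over all genes. For Cacna1c, Cacna1d and Abcc8 the 3′ UTR was again taken from a transcript other than the one with the longest coding sequence. The transcript with the longest coding sequence has 1 exon for Ffar1 and for Kcnj11, although the exons of Kcnj11 fill only 3677 bases of its locus. Of the 445 coding genes tested whose transcript has 1 exon, 19.8% were enriched and 31.2% depleted, against 31.8% and 36.6% of the 13036 with more exons.

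The other genes of the pathway were described in 7 lists of 109 genes, of which 96 were tested. Of the 96, 42 were enriched, 31 depleted and 23 did not pass, with a median log2 fold change of 0.10, against −0.071 over all genes tested. These are 43.8% enriched and 32.3% depleted, beside 28.9% and 33.6% of all genes. With no TMM factors 30 were enriched and 42 depleted (31.2% and 43.8%, beside 20.4% and 43.0% of all genes). Channel genes for potassium, calcium and other cations had 16 enriched and 2 depleted of 24 tested, in 2 lists. Genes of glucose transport, phosphorylation and metabolic coupling had 4 enriched and 17 depleted of 25 tested, also in 2 lists. With the offset for gene length 26 of the 96 were enriched and 32 depleted (27.1% and 33.3%), close to the 26.4% and 37.2% of all genes in that fit, among them 10 and 3 of the channel genes and 2 and 12 of the glucose and metabolic genes. The difference between the lists was not tested. In these paragraphs calls and adjusted p-values are those of the edgeR quasi-likelihood test with Benjamini-Hochberg adjustment over all genes tested.

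In glucose transport and phosphorylation 5 of 8 tested genes were depleted and 3 did not pass (median −0.46). Slc37a4, which carries glucose 6-phosphate into the endoplasmic reticulum where G6pc2 acts, had 13.5 ± 3.90 CPM in the IP and 45.5 ± 1.91 CPM in total RNA (n = 3 each, SD), a log2 fold change of −1.75 ± 0.20. The transporter genes Slc2a1 (−0.43 ± 0.15) and Slc2a8 (−0.40 ± 0.13) were depleted by a small margin, with adjusted p = 0.0347 and 0.0318, and lost the call in 10 and 9 of 15 alternatives. Leaving out single libraries gave 2 or 3 depleted genes in this list for 5 of the 6 libraries, all but IP library 3. The replicate block gave 3, and DESeq2 size factors, a minimum of 50 reads, halved counts and the offset for gene length gave 2 each. Metabolic coupling had 4 enriched and 12 depleted of 17 (median −0.50), and 2 enriched without IP library 1, IP library 3 or total RNA library 3. Gpd2, the mitochondrial glycerol phosphate dehydrogenase of a shuttle active in beta cells, had 471 ± 27.9 CPM in the IP and 130 ± 17.9 CPM in total RNA, a log2 fold change of 1.86 ± 0.12. Nnt, the proton-pumping transhydrogenase, was enriched at 0.39 ± 0.12, a call that 7 of 15 alternatives ended or reversed. Mpc2, a subunit of the mitochondrial pyruvate carrier, was the lowest at −3.61 ± 0.25, with 2.91 ± 0.945 CPM in the IP and 35.5 ± 2.31 CPM in total RNA, and the malate dehydrogenase gene Mdh1 was at −2.65 ± 0.14.

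Potassium channel genes other than Kcnj11 had 6 enriched and 1 depleted of 8 tested (median 1.53). Kcnj6, which encodes a G protein-gated inward rectifier, had 88.9 ± 15.1 CPM in the IP and 15.9 ± 0.921 CPM in total RNA, a log2 fold change of 2.48 ± 0.14. The calcium-activated channel gene Kcnma1 was at 1.98 ± 0.22. The small-conductance channel gene Kcnn1 was depleted at −0.87 ± 0.20. Kcnj8 and Abcc9, which encode the subunits of the vascular form of the ATP-sensitive channel, were near 0, at 0.0166 and 0.0998 CPM on average in the IP and 0.0377 and 0.0606 CPM in total RNA, and were not tested (both named as relatives of Kcnj11 and Abcc8, outside the rule for named genes). Other calcium and cation channel genes had 10 enriched and 1 depleted of 16 tested (median 0.73). Cacna2d2 (3.61 ± 0.75) and Cacna1e (2.41 ± 0.72) were highest, at low levels, and Cacna1e lost its call without total RNA library 1 or 2 and with the offset for gene length (1.14). They had 1.55 ± 0.891 CPM and 1.30 ± 0.595 CPM in the IP and 0.125 ± 0.0379 CPM and 0.242 ± 0.135 CPM in total RNA. The T-type subunit gene Cacna1h was at 0.67 ± 0.11 (−0.076 with the offset for gene length), and Trpm4, a calcium-activated cation channel gene, was depleted at −1.90 ± 0.32.

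Calcium store genes had 6 enriched and 1 depleted of 10 (median 0.65). Mcu, the mitochondrial calcium uniporter pore, was at 1.78 ± 0.09, and the calcium pump genes Atp2a3 and Atp2a2 were at 1.25 ± 0.07 and 0.44 ± 0.07. Atp2a2 lost its call with no TMM factors (0.00025) and with the offset for gene length (0.019). Orai1, the pore of store-operated entry, was depleted at −0.65 ± 0.20, a call that each total RNA library decided, since it ended when any 1 of them was left out. It also ended with the offset for gene length (−0.27). The list had 2 depleted genes without IP library 1 or 2. Other receptors of the beta cell had 6 enriched and 5 depleted of 14 tested (median −0.16), and 3 depleted without total RNA library 2 or 3. The calcium-sensing receptor gene Casr was highest at 2.12 ± 0.26. Gipr, for the receptor of the other incretin hormone, was lower in the IP, at 8.32 ± 1.54 CPM against 18.2 ± 1.75 CPM in total RNA, a log2 fold change of −1.13 ± 0.19, whereas Glp1r was higher. G protein, cyclic AMP and zinc genes had 10 enriched and 6 depleted of 23 tested (median 0.06). Gnai2 (2.25 ± 0.15) and Gnao1 (2.21 ± 0.08), alpha subunits of inhibitory G proteins, were highest. Slc30a5, a zinc transporter of the secretory pathway, was at −2.11 ± 0.09, with 26.0 ± 0.750 CPM in the IP and 112 ± 6.13 CPM in total RNA, and Mt1, a metallothionein that binds zinc, at −3.91 ± 0.29. Slc30a8 (0.30, but −0.14 with no TMM factors) differed in sign from Slc30a5 and Slc30a9 (−0.92 ± 0.10) in the main fit. Slc30a7 was enriched at 1.70 ± 0.17, and Slc30a1 (0.041 ± 0.22) and Slc30a6 (−0.33 ± 0.21) were not called. Slc30a7, Slc30a1 and Slc30a6 were chosen after their values were seen.

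**Figure D5:**
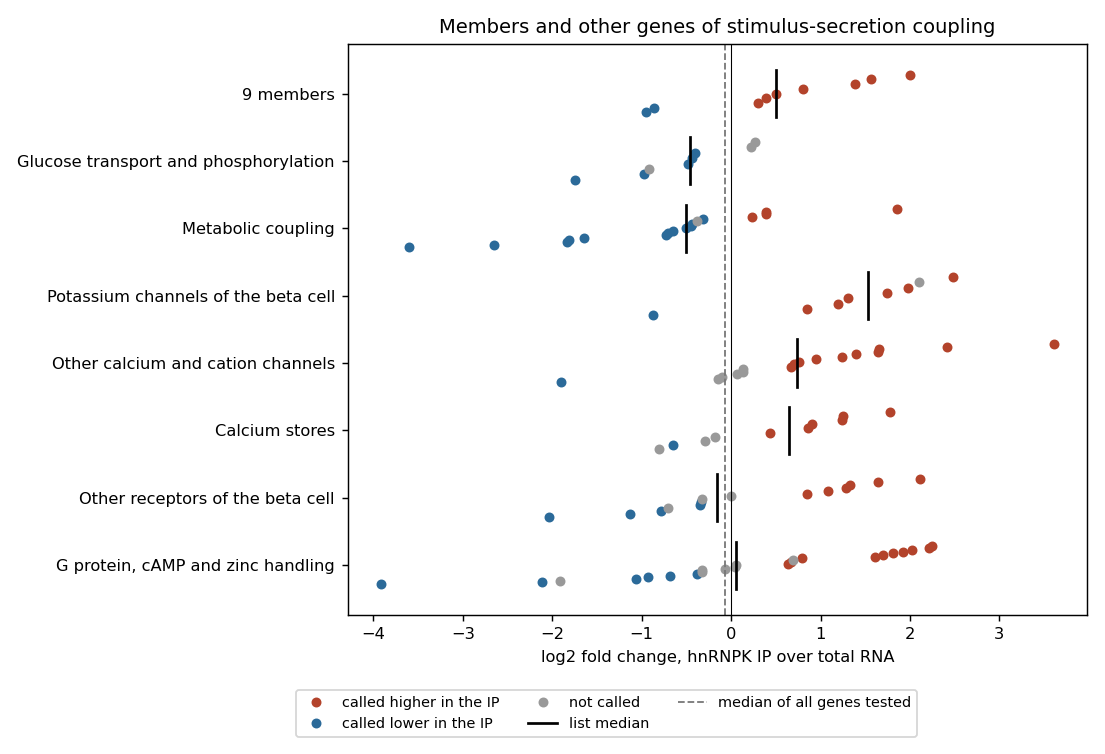
Log2 fold change (hnRNPK IP over total RNA) of the 9 members and of the 96 tested genes in 7 lists, with each list's median as a black line and the median of all genes tested as a dashed line. Potassium and calcium channel lists sit mostly to the right, with medians of 1.53 and 0.73, and glucose transport and metabolic coupling mostly to the left, with medians of −0.46 and −0.50.

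The profile of each member over the 6 libraries was compared with those of the 96 pathway genes, as the root mean square distance between log2 CPM values centred on each gene's mean. Gnaq, which encodes the G protein alpha subunit that couples to Ffar1, was nearest to Ffar1 (distance 0.067 on the log2 scale) and was enriched at 2.02 ± 0.09. The calcium channel subunit gene Cacna2d1 was nearest to Cacna1c (0.098, itself at 1.64 ± 0.13), and the sodium channel gene Scn9a to Glp1r (0.16). The glutamate dehydrogenase gene Glud1 was nearest to both Slc2a2 (0.11) and Slc30a8 (0.059), Hk1 to Kcnj11 (0.094), Gipr to G6pc2 (0.13) and Slc30a9 to Abcc8 (0.12). Hk1 itself, at 0.27 ± 0.25, did not pass. With 2 groups of 3 libraries this distance reflects mainly the difference between the groups.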

How the data were processed

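The authors deposited raw counts per gene, 1 table per library. TopHat2, featureCounts and mm10 are named per the submitters' processing notes, while versions, annotation release and strand setting were not given in the sources used here. Of 53379 genes, 105 had no identifier in GENCODE M21 (GRCm38), with no more than 0.0237% of the counts in any library. Low counts, 1 to 20, were even in 58.6% to 68.7% of cases, and halved counts are among the alternatives.

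The main test used edgeR 4.0.16 under R 4.3.3 (TMM, filterByExpr, quasi-likelihood F test, group only, Benjamini-Hochberg adjustment over 16929 genes, threshold 0.05), a step tested on simulated data. The simulation changed few genes, balanced up and down, so it does not check TMM scaling in data where 62.4% of genes were called. Fold changes are hnRNPK IP over total RNA, and the SE is the size of the log2 fold change divided by the square root of F. CPM and RPKM use TMM factors and annotated exon length. The 15 alternatives were DESeq2 1.42.0, limma-voom 3.58.1, 2 other scalings, 2 other filters, a replicate block, an offset that takes out each library's trend with exon length, halved counts and leaving out each library. Ratios within a library were added after seeing the data. Named pathway genes were up to 2 called genes with the highest and 2 with the lowest value per list, and the nearest gene to each member. Some genes that this rule names, and 1 pair, are not reported here. Members and lists were chosen with earlier results of these data known. Chi-square over its degrees of freedom was 6.40 to 123 between libraries of a group, so none was within sampling noise of another. That does not tell whether they came from separate RNA. The labels do not say whether the replicates were separate cultures. The p-values then reflect only library-to-library spread, which may be technical. All levels are relative, as no spike-in was used here to tie IP to total RNA.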

Additional observations from a re-analysis of the deposited data

How the results depend on the processing

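Ffar1, Glp1r, Cacna1c, G6pc2 and Abcc8 kept direction and call in all 15 alternatives. Members called enriched numbered 7, and 4 with library totals alone, 5 with the offset for gene length and 5 to 7 with 1 library left out, while 2 stayed depleted in every alternative. Pathway genes called enriched numbered 42, and 26 with the offset for gene length. With library totals alone the values of Kcnj11, Slc30a8, Hk1, Glud1 and Nnt were −0.039, −0.14, −0.16, −0.046 and −0.043. With the offset for gene length those of Cacna1d, Hk1, Nnt and Cacna1h were −0.092, −0.37, −0.12 and −0.076. The offset takes out the trend with length by construction, and for the other changes the cause was not tested. Among values of the named pathway genes, 438 kept direction and call, 34 lost the call and 6 changed sign.

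Whether libraries with the same replicate number were paired cannot be told from 3 libraries per group. Deviations from the group means of same-numbered libraries correlated at 0.00087, −0.071 and 0.12. Every IP library correlated best with a total RNA library of another number, for IP library 3 at 0.122 against 0.12. A shared lysate was not tested by this. With the numbers as a replicate block 6 members were enriched and 2 depleted, and Kcnj11, at 0.39, had an edgeR adjusted p = 0.0511. No other member changed its call under the block. The fewest reads of a member in any library were 869, for Slc2a2. DESeq2 size factors moved the median of all genes by 0.043, library totals alone by −0.43.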

Other observations

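The gene next to Ffar1 and a further free fatty acid receptor gene of the same strand of chromosome 7 differed from each other in the IP. Ffar3 (30854330 to 30856178), for a receptor of short-chain fatty acids, lies 1211 bases from Ffar1 and had 108 ± 1.51 CPM in the IP against 34.5 ± 1.49 CPM in total RNA (n = 3 each, SD), with a log2 fold change of 1.64 ± 0.09. Ffar2 (30818348 to 30823775), for another such receptor, had 27.4 ± 8.61 CPM in the IP against 113 ± 1.30 CPM in total RNA, a log2 fold change of −2.04 ± 0.22. Both were called (edgeR, adjusted p = 3.28e-06 for Ffar3 and 0.000103 for Ffar2) and kept direction and call in all 15 alternatives. Within a library, reads of Ffar1 for each read of Ffar2 were 48.0, 83.2 and 36.5 in IP libraries 1, 2 and 3, against 3.57, 2.86 and 2.84 in total RNA libraries 1, 2 and 3, a 17.1-fold higher ratio in the IP. Reads of Ffar1 for each read of Ffar3 were 13.9, 13.5 and 11.4 in IP libraries 1, 2 and 3, against 11.3, 9.87 and 9.14 in total RNA libraries 1, 2 and 3. Ffar1 over Ffar2 could not overlap between the groups, since the 2 genes went opposite ways in every library, and no test is given for it. Ffar1 over Ffar3 did not overlap either (exact permutation test, two-sided, p = 0.1, the smallest that 3 against 3 libraries allow, and 0.117 adjusted over 7 pairs).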
